A study of Mus musculus with 8 samples.

Results

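The genes described here make, break down, bind or respond to retinoic acid. They are the 9 genes Aldh1a2, Dhrs3, Cyp26b1, Crabp1, Crabp2, Rara, Rarb, Rarg and Tgm2, chosen by name with earlier results of these data known. Every probe set annotated to one of these symbols was taken, which gave 15 of 45037 non-control probe sets and 9 of 18193 named genes. The data come from immortalized mouse embryonic kidney cells of the line LB-22. Transfection lasted 6 h and used 25 pmol of an siRNA against Wt1 (4 arrays) or of a scrambled control siRNA (4 arrays), and total RNA taken 48 h later was hybridised to Affymetrix Mouse 430_2 arrays. Both groups had been expanded at 33 °C with 10 U/ml interferon gamma, and both were moved to 37 °C without interferon at transfection. The labels describe 1 cell line and do not say whether the replicates were separate cultures, so p-values measure the spread between these arrays, which may be technical. In RNA from a whole culture, fewer cells expressing a gene and less of its RNA per cell cannot be told apart.

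Retinol is oxidised to retinaldehyde, which retinaldehyde dehydrogenases such as the product of Aldh1a2 turn irreversibly into retinoic acid. The product of Dhrs3 works against this by reducing retinaldehyde back to retinol, and cytochrome P450 enzymes of the Cyp26 family clear retinoic acid by oxidation. Retinoic acid is carried by cellular retinoic acid binding proteins (Crabp1, Crabp2) and activates nuclear receptors (Rara, Rarb, Rarg), which bind DNA as partners of retinoid X receptors, often at direct repeats of a 6-base core motif. Rarb, Dhrs3, Tgm2 and several Cyp26 genes are known retinoic acid responsive genes. In the embryonic kidney, retinoic acid made by stromal cells acts on the ureteric bud, where it maintains the receptor tyrosine kinase gene Ret. Wt1 encodes a zinc finger transcription factor, and Aldh1a2 has been described as one of its targets in the mouse epicardium. The comparison asks how these genes differ when Wt1 is lowered.

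The Rarb promoter holds the best known retinoic acid response element, so the 250 bases before its start are shown first, in capitals the 2 cores of a direct repeat with 5 bases between them. The sequence is RefSeq's on GRCm38.p6 at chr14:16575477-16575726, minus strand. The element of Cyp26a1, from the same enzyme family as Cyp26b1, is shown for comparison within the 100 bases before that gene's start, at chr19:37697708-37697807, plus strand, where it reads in the opposite direction.
Rarb: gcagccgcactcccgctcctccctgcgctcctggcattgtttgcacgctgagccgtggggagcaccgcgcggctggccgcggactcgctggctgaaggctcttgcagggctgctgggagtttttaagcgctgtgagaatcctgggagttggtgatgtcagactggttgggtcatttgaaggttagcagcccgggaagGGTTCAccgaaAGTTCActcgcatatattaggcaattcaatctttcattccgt
Cyp26a1: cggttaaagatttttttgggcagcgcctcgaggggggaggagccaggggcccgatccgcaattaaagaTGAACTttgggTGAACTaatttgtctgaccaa

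The repeat lay 53 to 37 bases before the Rarb start and 32 to 16 bases before the Cyp26a1 start. The search was run on both strands and took AGGTCA as the core. It also allowed GGGTCA in its place. The other cores allowed were AGTTCA, with a different middle, and the form GGTTCA, which has both changes. Among 32851 RefSeq promoter windows (250 bases before to 50 after a start), 0.0974% held a repeat of this kind. Promoter windows were found for 7 of the 9 genes (all but Tgm2 and Crabp2), 13 windows in all, and among them the repeat was found in the Rarb window alone. The single core AGGTCA, present in 16.3% of all windows, was found in 1 of the 4 windows of Rara and 1 of the 2 windows of Rarg. Repeats with 2 bases between the cores (0.268% of all windows) and the WT1-type motifs GCGGGGGCG (2.91%) and GCGTGGGAG (0.472%) were not found in these 13 windows. These are matches of letters in short windows and say nothing of binding.

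The arrays resembled each other more within groups (Pearson's r of log2 signals across the 22519 tested probe sets 0.966 to 0.985, where probe sets are not independent) than between groups (0.937 to 0.967). The targeted gene was lower on all 4 arrays labelled Wt1 siRNA, at 16.9% to 24.6% of the control geometric mean (log2 difference -2.28 ± 0.11, SE; limma adjusted p = 9.17e-07). Signals are MAS5 values on a linear scale. The highest signal of 27 probe sets for bacterial transcripts, 227.2, was taken as the background level. Genes that define other cell types were checked as well, each by its brightest probe set. Of 32 such markers 21 were tested, with 4 higher and 10 lower. Over all genes tested on their brightest probe set in the same fit, 13.2% were higher and 14.6% lower. Each list holds few genes, so its counts are a description only. Of 4 mesothelial markers 3 were lower after Wt1 siRNA (Msln, Upk3b and Lrrn4), and the summed signal of the 4 was 22626 to 26954 on Wt1 siRNA arrays, against 45116 to 51360 on control siRNA arrays. The 2 tested podocyte markers (Podxl and Synpo) were also lower, and that list had a summed signal of 1306.3 to 1837.1 on Wt1 siRNA arrays, against 2766.9 to 5861.5 on control siRNA arrays. Of 4 epithelial markers 2 were higher and 2 lower. Of 6 kidney mesenchyme and stroma markers 4 were above background and 1 of these, Col1a1, was lower. Of 6 nephron progenitor markers 3 were above background and 1, Osr1, was higher. Among leukocyte markers Cd68 was higher and Csf1r lower while Ptprc was below background, and among endothelial markers Kdr was lower and the other 3 were below background. The part of these shifts in the results below was not tested.

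Expression of the retinoic acid genes differed in both directions after Wt1 siRNA. The gene for the synthesis enzyme, Aldh1a2, fell to 56.3% of the control level, the retinaldehyde reductase gene Dhrs3 to 27.0% and the receptor gene Rarb to 48.1%, while Cyp26b1, for an enzyme of retinoic acid breakdown, rose 2.20-fold. The transglutaminase gene Tgm2 fell on 2 of its 6 probe sets, while 3 others were tested without a call and 1 was below background. Rara and Rarg did not pass, and the binding protein genes Crabp1 and Crabp2 were not above background. Of the 15 probe sets 12 were bright enough to be tested, and of these 1 was higher and 5 were lower by limma (adjusted p under 0.05). Rarb was bright enough only through its control siRNA arrays. The background was 10.8% of all tested probe sets higher and 12.3% lower. The groups did not overlap for 6 of the 12, against 27.0% of all tested probe sets. The median log2 difference was -0.62 over the 12 and -0.01 over all tested probe sets. Of the 12, 5 are probe sets of Tgm2, and the median lies between 2 of these without a call (-0.67 and -0.57). The genes were chosen with earlier results of these data known, so these comparisons with all probe sets are a description only.

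**Figure D1:**
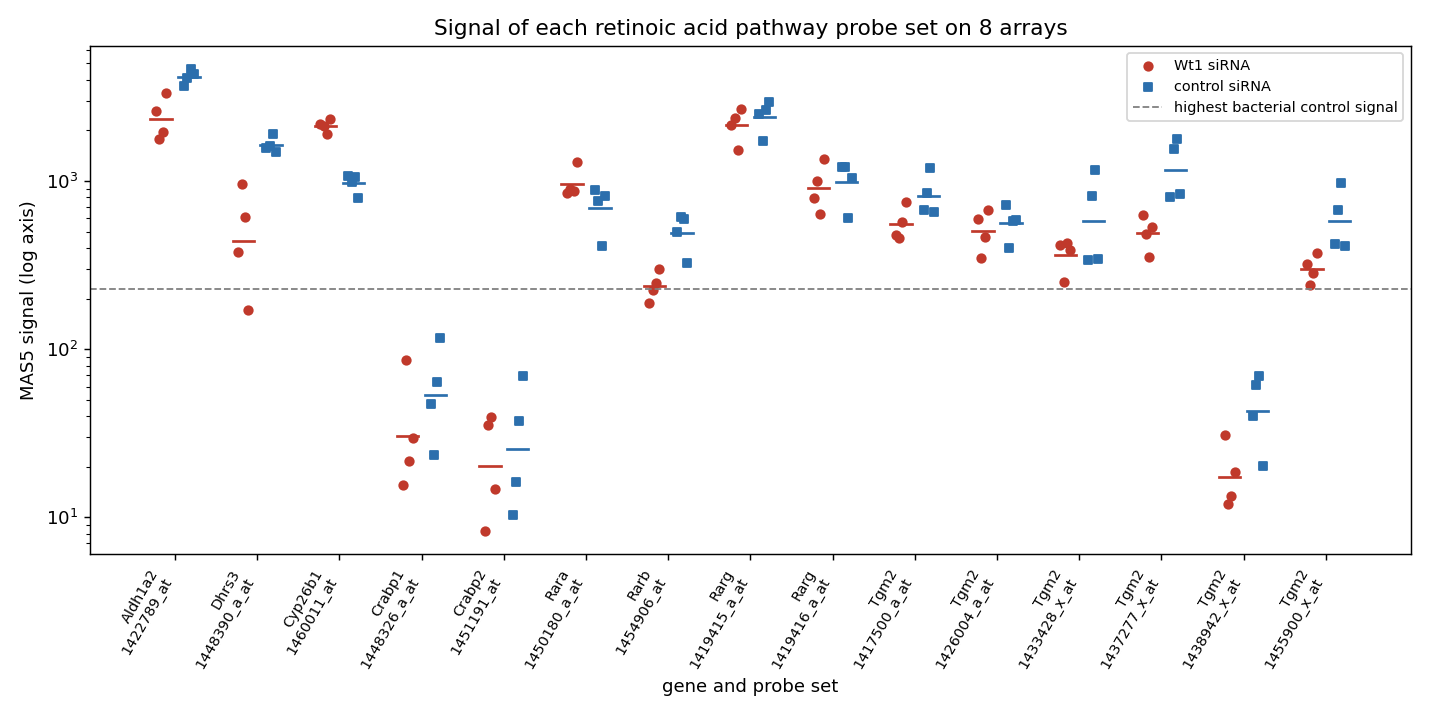
MAS5 signal (log axis) of the 15 probe sets of the 9 genes on each array, Wt1 siRNA as red circles left of control siRNA as blue squares, with short lines at geometric means (n = 4 each). The dashed line is the highest bacterial control signal, 227.2, under which the probe sets of Crabp1 and Crabp2 and 1 of Tgm2 lie on all arrays.

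Aldh1a2 encodes the main retinoic acid producing dehydrogenase of the early embryo. Its signals were 2606.7, 1778.6, 1948.7 and 3336.5 on Wt1 siRNA arrays 1 to 4, against 3651.4, 4086.2, 4628.6 and 4336.6 on control siRNA arrays 1 to 4. All Wt1 siRNA arrays were lower than all control arrays, though replicate 4 came closest, at 80.2% of the control geometric mean, and the others were at 42.8% to 62.7%. Mean signals were 2418 ± 709 after Wt1 siRNA and 4176 ± 414 after control siRNA (SD, n = 4 each). On the log2 scale the difference was -0.83 ± 0.17 (SE; adjusted p by limma = 0.0051). The exact two-sided permutation p was 0.0286, and no smaller value is possible with 4 arrays a group. The difference ranged from -0.998 to -0.70 with 1 array left out, and it passed in each case.

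Aldh1a1 and Aldh1a3, for other enzymes that make retinoic acid from retinaldehyde, did not pass the test or were too dim for it. Aldh1a1 had 35890 ± 2743 on Wt1 siRNA arrays and 35760 ± 3064 on control siRNA arrays (SD, n = 4 each; log2 difference 0.01 ± 0.09, SE; limma adjusted p = 0.97). Aldh1a3 was below background in both groups. Aldh1a7, a mouse gene closely related to Aldh1a1, was at -0.10 ± 0.08 and did not pass.

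Dhrs3 showed the largest difference of the 9 genes and, on Wt1 siRNA arrays, the widest spread among the tested probe sets of these genes. Its signals were 379.8, 961.3, 610.7 and 170.2 on Wt1 siRNA arrays 1 to 4, against 1561.2, 1611.8, 1915.1 and 1478.0 on control siRNA arrays 1 to 4. The groups did not overlap, but within the Wt1 siRNA group the level ran between 10.4% and 58.8% of the control geometric mean, and replicate 4 was under the background level. The SD of its log2 signal was 1.07 between Wt1 siRNA arrays, larger than that of 99.5% of tested probe sets, and 0.16 between control siRNA arrays. The log2 difference was -1.89 ± 0.41 (SE; limma adjusted p = 0.00607; exact two-sided permutation p = 0.0286). Without Wt1 siRNA replicate 4 it was -1.43 (adjusted p = 0.00296).

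The order of the Wt1 siRNA arrays was opposite for the 2 enzyme genes. Replicate 4 had the highest Aldh1a2 and the lowest Dhrs3 signal, and replicate 2 the lowest Aldh1a2 and the highest Dhrs3 signal, with replicates 1 and 3 between them in both cases. The remaining Wt1 signal was also highest in replicate 4, at 24.6% of control, and lowest in replicate 3, at 16.9%. Replicate 4 also stood apart as a whole array, with a median signal of 337.1 against 281.7 to 299.1 on the other Wt1 siRNA arrays. Its highest r with an array of its group was 0.972, against 0.985 for each of the others. Control siRNA replicate 3 stood apart in a like way, with a median signal of 279.1 against 336.1 to 346.1 on the other control siRNA arrays. The highest r of that array within its group was 0.971, against 0.983 for each of the others. The part of these array differences in the orders and in single values was not tested. With 4 arrays the orders are a description only.

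Cyp26b1 encodes a P450 enzyme that oxidises retinoic acid. Its signals were 2172.1, 2121.5, 1909.7 and 2346.1 on Wt1 siRNA arrays 1 to 4, against 1063.9, 985.1, 1052.4 and 794.6 on control siRNA arrays 1 to 4. Every Wt1 siRNA array was at 197% to 242% of the control geometric mean. The SD of its log2 signal was 0.12 between Wt1 siRNA arrays, larger than that of 31.8% of tested probe sets. Between control siRNA arrays it was 0.20, larger than that of 55.6%. Mean signals were 2137 ± 180 after Wt1 siRNA and 974 ± 125 after control siRNA (SD, n = 4 each), and the difference was 1.14 ± 0.12 on the log2 scale (SE; limma adjusted p = 7.68e-05; exact two-sided permutation p = 0.0286). Only 1.7% of tested probe sets had a difference at least as large in either direction. Cyp26b1 passed with each array left out in turn, at 1.04 to 1.19. Its relative Cyp26a1 was under the background level in both group means, at 108 ± 103 after Wt1 siRNA and 117 ± 35 after control siRNA (SD, n = 4 each), and was not tested.

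The binding protein genes were not above background. Crabp1 had 15.5 to 86.2 on Wt1 siRNA arrays and 23.6 to 116.1 on control siRNA arrays. Crabp2 had 8.3 to 39.3 on Wt1 siRNA arrays and 10.4 to 69.3 on control siRNA arrays. Both genes lay under the background level on all 8 arrays, their groups overlapped, and neither was tested, so a difference was not detectable here. Fabp5, which encodes a fatty acid binding protein that can also carry retinoic acid, was well measured and rose 1.37-fold (log2 difference 0.45 ± 0.06, SE; limma adjusted p = 0.000351). Its signals were 16364.3, 16332.0, 16506.4 and 16771.1 on Wt1 siRNA arrays, against 12287.4, 11530.7, 12408.1 and 12113.1 on control siRNA arrays, and its other probe set also rose, by 0.55 ± 0.10.

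Among the receptors, Rarb fell. Its signals were 188.7, 224.4, 246.8 and 299.8 on Wt1 siRNA arrays 1 to 4, against 495.3, 610.4, 590.9 and 326.2 on control siRNA arrays 1 to 4. The groups did not overlap, with control replicate 4 close above the highest Wt1 siRNA array. The log2 difference was -1.05 ± 0.25 (SE; limma adjusted p = 0.0114; exact two-sided permutation p = 0.0286), and it was called with each array left out in turn, with adjusted p up to 0.0411. Rarb was a dim gene here: 2 of 4 Wt1 siRNA arrays and 4 of 4 control siRNA arrays lay above the background level. The level also placed it near the lowest geometric mean that was tested, 291.1, and a test of 1 probe set a gene with a higher limit left it out. Its mean signal was 239.9 after Wt1 siRNA, under that limit, and 505.7 after control siRNA. Rarb thus reached the test through its control siRNA arrays, and its calls are a description only. With no filter on signal its limma adjusted p was 0.0276. Its promoter window holds the direct repeat shown above. The label of its probe set does not say which Rarb transcript it measures.

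Rara showed no difference past the threshold. It had 851.0, 900.0, 876.8 and 1295.3 on Wt1 siRNA arrays 1 to 4, against 884.4, 761.8, 407.9 and 813.0 on control siRNA arrays 1 to 4. The groups overlapped, with the highest value on Wt1 siRNA replicate 4 and the lowest on control siRNA replicate 3 (log2 difference 0.49, 95% interval -0.04 to 1.02; limma adjusted p = 0.169). With arrays centred on their median log2 signals it was 0.60 and passed (adjusted p = 0.0401), so this call depended on the scaling.

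Rarg was measured by 2 probe sets and passed on neither. On the brighter one it had 2142.3, 2377.6, 1535.9 and 2672.4 on Wt1 siRNA arrays 1 to 4, against 2506.2, 1726.4, 2644.7 and 2940.3 on control siRNA arrays 1 to 4. The log2 difference was -0.17 (95% interval -0.59 to 0.24; limma adjusted p = 0.559), and it was -0.11 (-0.69 to 0.47) on the other probe set. The intervals leave room for a fall as well as a small rise.

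**Figure D2:**
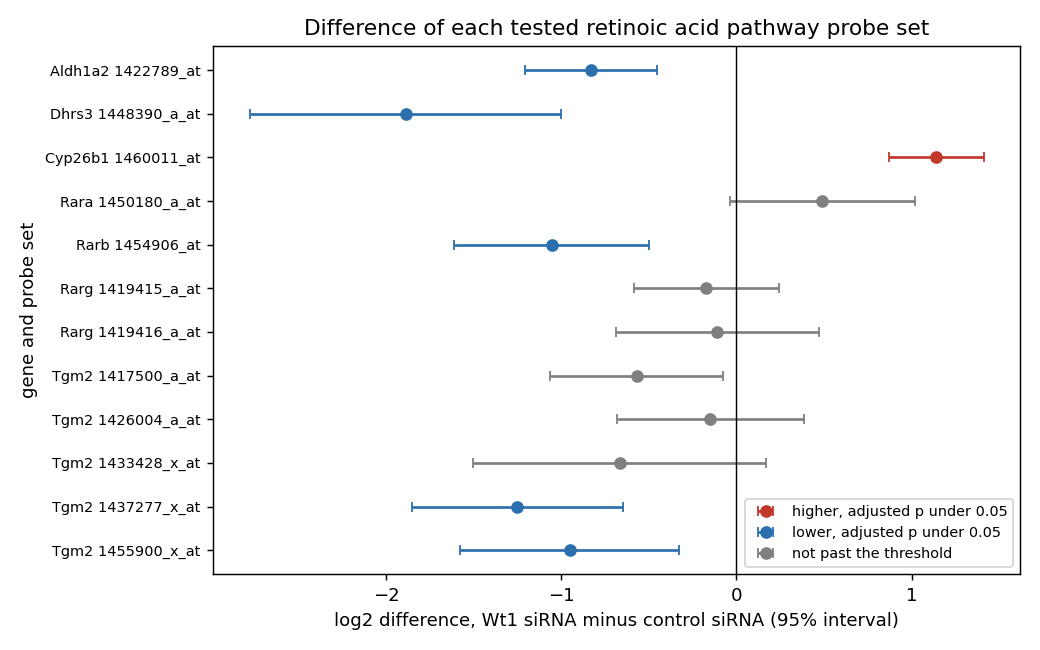
Log2 difference (Wt1 siRNA minus control siRNA) with its 95% interval from limma for the 12 tested probe sets, coloured by call. Cyp26b1 is the 1 probe set called higher, at 1.14, and the 5 called lower run from -1.89 (Dhrs3) to -0.83 (Aldh1a2).

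Tgm2 encodes tissue transglutaminase, which crosslinks proteins and is a classical retinoic acid induced gene. Its 5 tested probe sets all had a lower geometric mean after Wt1 siRNA, but the differences varied in size. On the brightest probe set (1437277_x_at) the signals were 631.6, 486.5, 354.1 and 533.2 on Wt1 siRNA arrays 1 to 4, against 803.6, 1538.8, 1784.4 and 842.5 on control siRNA arrays 1 to 4. The groups did not overlap, and the control arrays were split, with replicates 2 and 3 at 132% and 153% of the control geometric mean and replicates 1 and 4 at 68.8% and 72.2%. The log2 difference was -1.25 ± 0.28 (SE; limma adjusted p = 0.00706), and it passed with each array left out, at -1.43 to -1.05.

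The same split of the control arrays appeared on 3 other tested Tgm2 probe sets. On 1455900_x_at the signals were 321.0, 240.1, 282.4 and 371.1 on Wt1 siRNA arrays, against 421.4, 673.0, 974.0 and 409.8 on control siRNA arrays, a difference of -0.95 ± 0.29 on the log2 scale (SE; limma adjusted p = 0.0326). Leaving out 1 array ended this call for control replicate 2 (adjusted p = 0.0869) and 3 (0.0626) and for Wt1 siRNA replicate 1 (0.0594), 2 (0.0879) and 3 (0.0717). So did a block for replicate number (adjusted p = 0.0558) and the settings of quantile normalization (0.0696), median centring of arrays (0.0569) and no filter on signal (0.0645). On 1417500_a_at the difference was -0.57 ± 0.23 and on 1433428_x_at -0.67 ± 0.38, and neither passed (adjusted p = 0.0928 and 0.237). The first of these, 1417500_a_at, was called lower without Wt1 siRNA replicate 4 (-0.715, adjusted p = 0.0401) and with array weights (-0.541, adjusted p = 0.0333). The probe set 1438942_x_at was under background on all arrays.

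The remaining tested probe set of Tgm2, 1426004_a_at, did not show that split. It had 591.5, 349.3, 464.9 and 673.6 on Wt1 siRNA arrays 1 to 4, against 718.7, 401.3, 578.7 and 587.0 on control siRNA arrays 1 to 4, where replicates 2 and 3 were not the highest. Its log2 difference was -0.15 (95% interval -0.68 to 0.38; limma adjusted p = 0.705). Both called probe sets of Tgm2 carry the suffix _x_at, which marks probes that may bind other transcripts too.

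**Figure D3:**
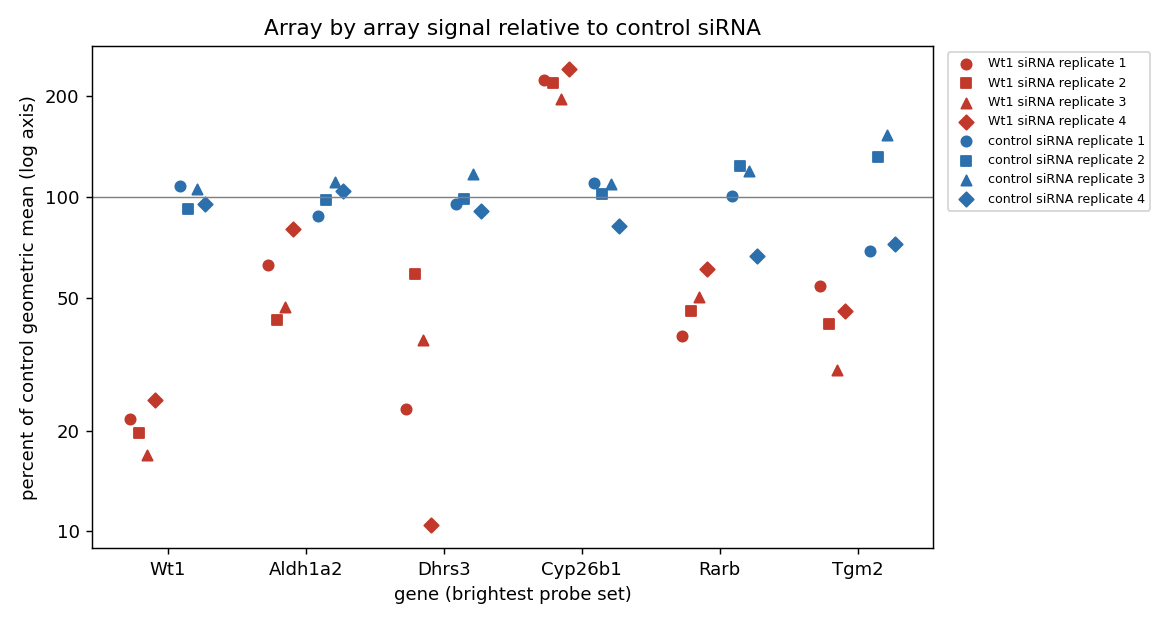
Signal on each array as a percent of the geometric mean of the control siRNA arrays (log axis) for Wt1 and 5 of the genes, brightest probe set each, Wt1 siRNA in red left of control siRNA in blue, with 1 symbol shape a replicate number. Dhrs3 runs from 10.4% to 58.8% over the Wt1 siRNA arrays and Cyp26b1 from 197% to 242%.

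The wider pathway was described with a list of 43 other retinoid genes, of which 37 were named in the annotation used here and 23 were bright enough to be tested. By their brightest probe sets 6 were higher, 2 were lower and 15 did not pass, with a median log2 difference of 0.04. Over all genes tested on their brightest probe set in the same fit, 13.2% were higher and 14.6% lower. Of 8 tested genes listed under the oxidation or reduction of retinol and retinaldehyde, Aldh1a7 among them, 1 rose, 1 fell and 6 did not pass. Rdh14, for a retinol dehydrogenase, fell to 75.9% of control (log2 difference -0.40 ± 0.09, SE; limma adjusted p = 0.0102), a call lost with arrays centred on their medians and when its probe sets were averaged (-0.19, adjusted p = 0.491). Adh5, whose product acts mainly on glutathione-bound formaldehyde, rose by 0.29 ± 0.07 (adjusted p = 0.0101), also lost with that centring (adjusted p = 0.0515). With its probe sets averaged Adh5 was at 1.24, where the other probe set was above background on 2 arrays of 8. Rdh10, for the retinol dehydrogenase that supplies retinaldehyde in the mouse embryo, had 1216 ± 133 on Wt1 siRNA arrays and 1486 ± 82 on control siRNA arrays (SD, n = 4 each). Its groups did not overlap, but it did not pass (limma adjusted p = 0.0874).

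The group of receptor partners in this list holds retinoid X receptors and coregulators together with the carrier gene Fabp5 and the separate nuclear receptor gene Ppard. Of its 10 tested genes 5 rose, 0 fell and 5 did not pass, with a median log2 difference of 0.30. Over all genes tested on their brightest probe set, 13.2% were higher and 14.6% lower. The list was written with earlier results of these data known, so the count is a description only. Fabp5 and Ppard were among the 5 that rose, and the others were the coregulator genes Ncoa2, Ncoa3 and Nrip1. Ncoa3, encoding a coactivator of nuclear receptors, had 2867.6, 2651.5, 2682.3 and 2653.5 on Wt1 siRNA arrays, against 1438.9, 1466.4, 1490.3 and 1518.3 on control siRNA arrays. The groups were far apart (log2 difference 0.88 ± 0.08, SE; limma adjusted p = 3.3e-05), and its other probe set rose by 0.67 ± 0.15. Ppard, encoding a nuclear receptor that can respond to retinoic acid delivered by Fabp5, rose 2.42-fold (log2 difference 1.28 ± 0.23; adjusted p = 0.00238), with 1833.7, 1902.4, 1282.1 and 2212.1 on Wt1 siRNA arrays, against 1147.3, 711.4, 679.1 and 516.8 on control siRNA arrays. The groups did not overlap, and its other probe set was below background.

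The coregulator genes Ncoa2 and Nrip1 rose by smaller amounts. Ncoa2 was at 0.39 ± 0.10 (SE; limma adjusted p = 0.0187) on its brightest probe set and Nrip1, for a corepressor that binds liganded receptors, at 0.44 ± 0.09 (adjusted p = 0.00466). With the mean over the probe sets of each gene neither passed, with adjusted p = 0.255 for Ncoa2 and 0.0895 for Nrip1. Leaving out control replicate 2 or 4, or Wt1 siRNA replicate 3, also ended the Ncoa2 call on its brightest probe set. So did an ordinary two-sample comparison per probe set (adjusted p = 0.0574). The retinoid X receptor genes did not pass, with Rxra at 0.19 ± 0.14 and Rxrb at -0.06 ± 0.14, and Rxrg was below background.

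Few retinoic acid responsive genes were bright enough to test. Of 4, Bhlhe40, for a transcriptional repressor that many other signals also induce, fell to 47.7% of control (log2 difference -1.07 ± 0.12, SE; limma adjusted p = 9.03e-05). Ret was at 0.31 ± 0.28, Meis1 at -0.47 ± 0.22 and Meis2 at 0.04 ± 0.08, and none of these 3 passed.

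**Figure D4:**
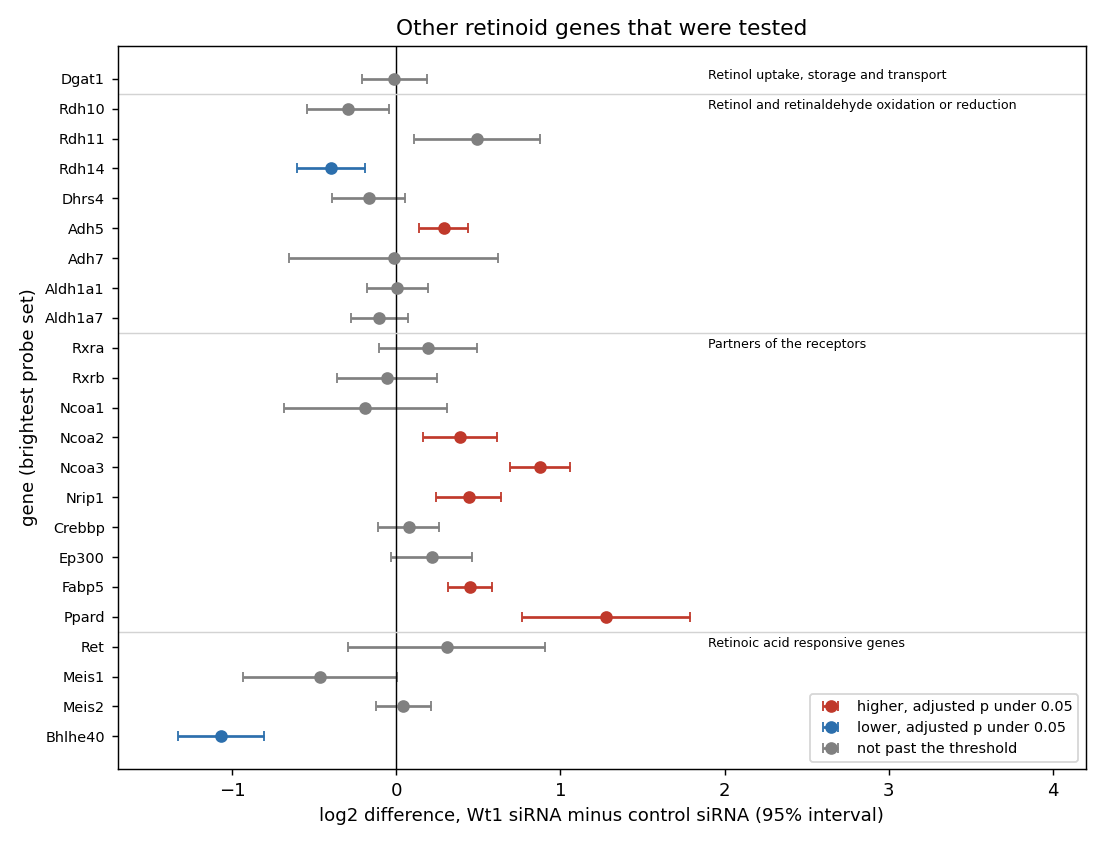
Log2 difference (Wt1 siRNA minus control siRNA) with its 95% interval for the 23 tested genes of the wider list, brightest probe set each, grouped by role and coloured by call. In the receptor partner group, which includes Fabp5 and Ppard, 5 of 10 genes are called higher, and elsewhere 1 gene is called higher and 2 lower. Over all genes tested on their brightest probe set 13.2% were higher and 14.6% lower. The list was written with earlier results of these data known.

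The genes most like 4 of the members over the 8 arrays were found as those with the smallest root mean square distance between log2 signals, each centred on its own mean. They are given as a description, with no test, among 11257 genes compared. For Cyp26b1 they were Dhx58 (distance 0.079), Smarcd1 (0.096) and St3gal2 (0.135), against a median of 0.617 over the genes compared. For Aldh1a2 they were Map1a (0.138), Ctla2a (0.158) and Cacna1f (0.16), against a median of 0.53. For Dhrs3 they were C2cd5 (0.284), Srr (0.304) and Kazald1 (0.499), against a median of 1.16. For Tgm2 they were Esyt3 (0.185), Epha7 (0.287) and Bicc1 (0.289), against a median of 0.775.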

How the data were processed

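Total RNA of 8 samples of LB-22 cells was measured on 1 array each, 4 with Wt1 siRNA and 4 with control siRNA, grouped by their titles. The deposited values are a linear intensity for each of 45101 probe sets, made by the authors with MAS5 per the submitters' processing notes (version not given in the sources used here). A trimmed mean was 1500 on every array, so the arrays share a scaling, and differences are relative to it. Arrays shared at most 42 identical values. Of 45037 non-control probe sets, 34945 carried 1 symbol (updated through Entrez IDs with RefSeq's table), 932 several and 9160 were unnamed here.

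Signals were log2 transformed without further normalization. The brighter 0.5 of the probe sets by mean log2 signal (22519, lowest geometric mean 291.1) were tested with limma 3.58.1 in R 4.3.3 (lmFit, eBayes with trend; two-sided; Benjamini-Hochberg over all tested, threshold 0.05). A ± after a log2 difference is an SE and after a signal an SD. Percent of control and folds compare geometric means. The procedure was tested on simulated data. The genes, lists and tests were chosen with earlier results of these data known. Named genes are the 9 members, Wt1, the called genes of the wider list, the 3 nearest genes of 4 members, and cell type markers, with other genes of the wider list chosen after their values were seen.

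Replicate numbers are shared between groups, but the deviations of same-numbered arrays from their group means had correlations of -0.062 to 0.0824, so the numbers were not taken as pairs. Alternatives were the replicate block, quantile normalization, median centring, 16 or 64 added to signals, other filters, variance models and units of testing, and leaving out each array. The number of arrays limits the precision. No scan date or other batch is given. Promoter sequences are RefSeq's on GRCm38.p6, and figures were drawn with matplotlib 3.10.9.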

Additional observations from a re-analysis of the deposited data

Results flagged for a closer look

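In 2 of 32 sets of 4 arrays (16 probe sets in 2 groups), 1 array stood apart from the other 3, its gap to the nearest exceeding Dixon's 95% limit as a share of the range. Chance gives this in about 1 of 20 such sets. For Rara on Wt1 siRNA arrays the share was 0.867, with replicate 4 at 1295.3 and the others at 851.0 to 900.0. Without that array the log2 difference of Rara was 0.35 (limma adjusted p = 0.342). With each array left out in turn it ran from 0.239 (without control siRNA replicate 3) to 0.611 (without control siRNA replicate 1), with no call. For Tgm2 on probe set 1433428_x_at the share was 0.83 on Wt1 siRNA arrays, with replicate 2 at 249.7 and the others at 391.2 to 428.9, and the difference was -0.49 without it (limma adjusted p = 0.452). With each array left out in turn it ran from -0.923 (without control siRNA replicate 1) to -0.328 (without control siRNA replicate 3), with no call.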

How the results depend on the processing

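Cyp26b1, Rarb and Wt1 kept their direction and their call under every alternative in which they were tested (21, 19 and 21 alternatives). For Rarb, which reached the filter through its control siRNA arrays, this is a description only. Aldh1a2 and Dhrs3 lost their calls only in an ordinary two-sample comparison per probe set, without the variance shared across probe sets (adjusted p = 0.0505 and 0.063), where Tgm2 also lost its calls on 1437277_x_at (0.0561) and 1455900_x_at (0.102), which left 1 lower probe set of these genes (Rarb). Of 8 arrays 2 correlated best with the array of their own number in the other group. With the replicate number as a block 2133 probe sets were higher and 2475 lower, and the members had 1 higher and 4 lower. Median centring, which moved the median difference over all tested probe sets to 0.10, against -0.01 as deposited, gave 2459 higher and 1369 lower, with 2 member probe sets higher. Among the brightest 0.25 of probe sets 0 members were higher and 1 was lower, since Aldh1a2 and 1 probe set of Rarg were the only members left. With no filter on signal 1948 were higher and 2398 lower. Using 1 probe set a gene (9097 tested) gave 1686 lower and 3 members lower. Tgm2 then kept only its brightest probe set, which left out 1455900_x_at, and Rarb did not reach the filter. Averaging a gene's probe sets gave 1152 higher, 1225 lower and 2 members lower, since neither Rarb nor Tgm2 reached the filter. Leaving out probe sets with the suffix _s_at or _x_at, 3 members were lower. With array weights 3622 probe sets were higher and 3961 lower. With 1 array left out there were 1698 to 2671 higher, 2045 to 3092 lower, 1 member higher and 4 to 6 lower. Leaving out arrays, the difference ran from -0.309 to 0.027 for Tgm2 on 1426004_a_at, positive without Wt1 siRNA replicate 2, and from -0.34 to 0.0604 for Rarg on 1419416_a_at, positive without Wt1 siRNA replicate 3, with no call in any case.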

Other observations

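Several dim genes of the wider list had values that were not tested. Bco1, for the enzyme that cleaves beta-carotene into retinaldehyde, had 94.3, 171.5, 120.3 and 118.4 on Wt1 siRNA arrays, against 229.1, 312.6, 208.4 and 253.0 on control siRNA arrays, without overlap, and all Wt1 siRNA arrays were under the background level. Stra6, for the receptor that takes up retinol, had 161.7, 23.4, 24.2 and 52.2 on Wt1 siRNA arrays, against 264.2, 147.3, 53.0 and 159.8 on control siRNA arrays, where 1 array was above background. Stra8, a germ cell gene induced by retinoic acid, had 67.7, 367.0, 243.7 and 161.2 on Wt1 siRNA arrays, against 160.6, 73.7, 53.0 and 63.0 on control siRNA arrays, with overlap.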
